A study of Mus musculus with 24 samples.

Results

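Left ventricles of control mice were compared between libraries labelled day 7 and libraries labelled day 1 of age. The comparison used 12 of the 24 RNA sequencing libraries of the series: the 6 control libraries labelled day 7 (library names m1022, m1064, m1066, m1088, m1091 and m1101) and the 6 control libraries labelled day 1 (13, 14, 22, 25, 56 and 62), chosen by genotype and labelled age. The other 12 came from mice in which Rhot1 and Rhot2, the genes of the RHOT (Miro) proteins that tie mitochondria to molecular motors, had been deleted in cardiomyocytes during embryonic life (DKO), 6 at each labelled age. They enter only the last comparison. The labels give the controls no strain, allele or Cre transgene. The source is labelled as cardiomyocytes, whereas the protocol names left ventricular tissue, and markers of other cell types were present, as described below. The labels do not say that the libraries came from separate animals, so p-values measure the spread between libraries, which may in part be technical.

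In the days after birth the rodent heart leaves its fetal programme. Cardiomyocytes exchange fetal for adult isoforms of sarcomere proteins, move from glucose and lactate to fatty acids as fuel, gain respiratory chain capacity and leave the cell cycle, while the imprinted fetal growth genes are switched down in many organs at once. Fibroblasts and capillaries multiply in the same days, and the collagen network is laid down.

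By gene lists chosen with earlier results of these data known, the libraries labelled day 7 had the more fetal profile. The list counts therefore support no independent statement of direction. Of 34 genes chosen as known to be higher in the fetal heart, 32 were higher in the libraries labelled day 7 than in those labelled day 1, where 26.4% of all genes tested were. Of 34 genes chosen as known to be higher in the mature heart, 25 were lower in the libraries labelled day 7, beside 24.3% of all genes tested. The groups did not overlap, with labelled day 7 higher, in 22 of the fetal genes (13.7% of all genes), and with labelled day 7 lower in 19 of the mature genes (13.8% of all genes). These directions are opposite to those known for the postnatal rodent heart, and what accounts for it was not tested. Groups are therefore named by their label throughout, as "labelled day 7" and "labelled day 1".

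The libraries labelled day 7 held 17334498 to 27272982 counts each, whereas the 6 labelled day 1 held 36145645 to 45806171, so levels in the libraries labelled day 7 rest on fewer reads. Levels are counts per 1000000 counts (CPM) after scaling, and fold changes are log2, labelled day 7 minus labelled day 1, with their standard error. A run of 3 levels gives the lowest, median and highest of the 6 libraries of a group, and a value with ± after it is the log2 fold change. The share of counts on pseudogenes was 4.88 to 6.11% at labelled day 7 and 7.37 to 9.04% at labelled day 1. The Y-linked gene Eif2s3y was above 10 CPM in 2 of the 6 libraries labelled day 7 (m1091 and m1101) and in 6 of the 6 labelled day 1. In the summed level of the fetal genes, m1101 lay nearer to the other group, at 16455 CPM, against 21616 to 25026 CPM in the other 5 labelled day 7. Library 13 did so too, at 8260 CPM, against 5177 to 6244 CPM in the other 5 labelled day 1. Myh7, a member of that list, was at 6834 CPM in m1101 and at 10920 CPM or more in the others labelled day 7. The placement did not hold in every list. The summed level of the matrix genes described below was lowest of all in m1101 (4720 CPM) and highest in library 13 (11558 CPM). Rhot1, the targeted gene, was at 144.0 to 164 CPM in controls labelled day 7 and 129 to 173 CPM in controls labelled day 1, with 123 to 151 CPM in DKO labelled day 7 and 107 to 137 CPM in DKO labelled day 1. Rhot2 is listed at 0 in every library.

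Of 16615 genes tested, 8428 (50.7%) differed between the libraries labelled day 7 and those labelled day 1 at an adjusted p under 0.05 in edgeR's quasi-likelihood test. There were 4393 genes (26.4%) higher and 4035 (24.3%) lower in the libraries labelled day 7, and the median log2 fold change over all genes was 0.01. Changes of more than 2-fold numbered 2078, with rises at 6.63% and falls at 5.88% of all genes. Because so many genes differed, a count over a gene list is to be read against these shares of all genes, and the share of the list is given with it as a percentage. With the presence of Y-linked transcripts as a covariate the count was 5157 (2764 higher and 2393 lower), and within the 8 libraries with Y-linked transcripts it was 4780 (2366 higher and 2414 lower). These are called the Y-linked settings below, where they moved a count by more than 1.5 times. Without libraries m1101 and 13, a setting chosen after seeing the data, it was 8754.

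The largest rises among protein-coding genes that reached 20 CPM and whose groups did not overlap were those of Tent5b, Hif3a, Sap30, Nrtn, Igf2bp1, Aldoc, Cdh3, Plvap, Ring1 and Slc22a17, between 3.31 and 5.95 on the log2 scale. Hif3a, a member of the hypoxia-inducible factor family, was at 35.8, 61 and 82.8 CPM in libraries labelled day 7, against 1.94, 2.33 and 3.41 CPM in those labelled day 1. Its log2 fold change was 4.60 ± 0.25 (adjusted p = 2.2e-08). Nrtn, which codes for the neurotrophic factor neurturin, was at 13.3, 52.4 and 59.97 CPM in libraries labelled day 7, against 1.04, 2.47 and 5.96 CPM in those labelled day 1. The largest falls were those of Mapt, Tuba8, Itgb6, Myo3a, Vtn, Fbp2, Rxrg, Alpl, Myh14 and Pi16, between -4.66 and -3.11. Mapt, the gene of the microtubule-associated protein tau, was at 1.53, 1.92 and 3.14 CPM in libraries labelled day 7, against 24.3, 55.7 and 78.3 CPM in those labelled day 1, a log2 fold change of -4.66 ± 0.30 (adjusted p = 9e-08). Fbp2, the muscle fructose-bisphosphatase, was at 0.62, 2.02 and 6.57 CPM in libraries labelled day 7, against 27, 30.2 and 38.1 CPM in those labelled day 1. Rxrg, a retinoid X receptor, was at 2.33, 3.12 and 4.82 CPM in libraries labelled day 7, against 17.8, 35.3 and 48.4 CPM in those labelled day 1. In all these genes no library labelled day 7 reached the range of those labelled day 1.

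Among the genes known from the fetal heart, contractile genes came out with high levels in the libraries labelled day 7. Myh7, the slow myosin heavy chain that rodent ventricles use before birth, was at 6834, 12371 and 14980 CPM in libraries labelled day 7, against 2225, 2360.5 and 2699.8 CPM in those labelled day 1, a log2 fold change of 2.28 ± 0.15 (adjusted p = 3.7e-08). The lowest of the libraries labelled day 7 was m1101, and it still lay above every library labelled day 1. Tnni1, the slow skeletal troponin I that is the fetal cardiac form, was at 2398, 2779 and 2928 CPM in libraries labelled day 7, against 213, 801 and 1637 CPM in those labelled day 1 (1.65 ± 0.33, adjusted p = 0.00088). Its highest library labelled day 1 was library 13. Myl4, the atrial and embryonic essential light chain, was at 87.9, 142 and 179.6 CPM in libraries labelled day 7, against 22.2, 43.3 and 88.6 CPM in those labelled day 1 (1.57 ± 0.31, adjusted p = 0.00092), and here the groups overlapped, since m1091 lay just below library 13. The call of Myl4 was lost within the 8 libraries with Y-linked transcripts. Nppa, the natriuretic peptide of atria and of fetal ventricles, was at 148, 209.5 and 481 CPM in libraries labelled day 7, against 15.7, 26.1 and 87.4 CPM in those labelled day 1 (2.88 ± 0.44, adjusted p = 0.00016). Acta2, the smooth muscle actin that immature cardiomyocytes also use, had a log2 fold change of 1.12 ± 0.17 (adjusted p = 0.0001). The T-type calcium channel gene Cacna1h had one of 1.21 ± 0.20. Hcn4, a pacemaker channel gene of the fetal ventricle, did not pass, at 0.41 ± 0.24 (adjusted p = 0.17). Tagln, an actin-binding gene of smooth muscle and of embryonic heart, was the exception in this list, with 4.04, 4.43 and 4.89 CPM in libraries labelled day 7, against 7.63, 10.8 and 15.2 CPM in those labelled day 1 (-1.27 ± 0.16).

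Atrial muscle markers moved in both directions: 6 of 15 rose (40%), among them Nppa, Myl4, Gja5 and Pam, 4 fell (26.7%, and 2 genes without m1091, m1101 or 25), and their median log2 fold change was 0.28. Myl7, the atrial regulatory light chain, was at 94.4 to 201 CPM in libraries labelled day 7 and at 1.34 to 303 CPM in those labelled day 1, and did not pass the test. Bmp10, a growth factor of atria and of embryonic trabeculae, was at 0.499 to 2.25 CPM in libraries labelled day 7 and at 0 to 0.0267 CPM in those labelled day 1. With the log2 CPM of Myl7 as a covariate, added after seeing the data, the log2 fold change of Nppa was 2.76 and that of Myl4 was 1.33.

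**Figure D1:**
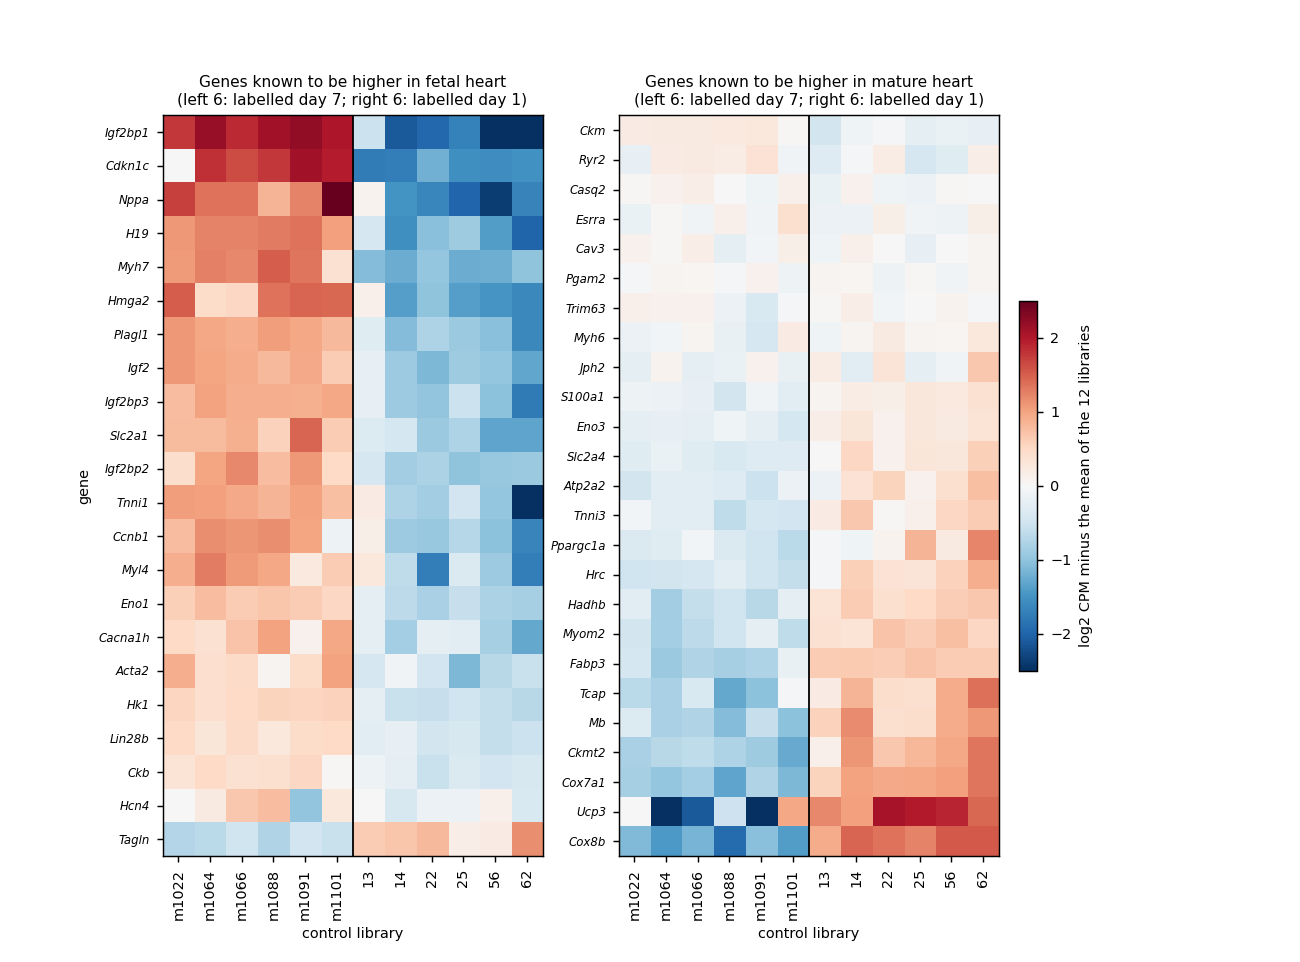
Level of each gene (log2 CPM minus its mean over the 12 libraries) in the 6 control libraries labelled day 7, left of the line, and the 6 labelled day 1, right of it, for 22 of the 34 genes known to be higher in the fetal heart and 25 of the 34 known to be higher in the mature heart, ordered by fold change. Most fetal genes are red on the left and most mature genes blue there, while Ccnb1 is pale blue in m1101 and pale red in library 13.

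The genes known from the mature heart had a median log2 fold change of -0.72. Among the steepest falls were those of muscle forms of mitochondrial genes. Cox8b, a muscle form of a cytochrome oxidase subunit, was at 46.4, 73.1 and 85.8 CPM in libraries labelled day 7, against 339, 471 and 515 CPM in those labelled day 1, a log2 fold change of -2.68 ± 0.15 (adjusted p = 1.4e-08). Cox7a1, the muscle form of another subunit, was at 66.8, 88.4 and 98.7 CPM in libraries labelled day 7, against 245, 329 and 419 CPM in those labelled day 1 (-1.95 ± 0.12, adjusted p = 2.4e-08). Ckmt2, the creatine kinase of muscle mitochondria, was at 329, 452 and 504 CPM in libraries labelled day 7, against 859.5, 1458 and 1989.5 CPM in those labelled day 1 (-1.72 ± 0.17, adjusted p = 1.6e-06). None of these groups overlapped. Oxygen and fatty acid carriers fell too: Mb, the gene of myoglobin, was at 522, 641 and 871 CPM in libraries labelled day 7, against 1449, 1873 and 2500.5 CPM in those labelled day 1 (-1.55 ± 0.16). Fabp3, the heart fatty acid binding protein, was at 1675, 1887 and 2820.0 CPM in libraries labelled day 7, against 4925, 4995 and 5249.9 CPM in those labelled day 1 (-1.28 ± 0.11). Tnni3, the adult troponin I, was at 1728, 2088 and 2562 CPM in libraries labelled day 7, against 2736, 3455 and 4275 CPM in those labelled day 1 (-0.74 ± 0.12). Myom2, a protein of the mature M-band, had a log2 fold change of -1.10 ± 0.10, Tcap, which caps titin at the Z-disc, one of -1.40 ± 0.23, and Atp2a2, the calcium pump SERCA2, one of -0.70 ± 0.13.

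Among mature genes, 8 did not pass: Jph2, Myh6, Trim63, Pgam2, Cav3, Esrra, Casq2 and Ryr2, with log2 fold changes between -0.23 and 0.23. Myh6, the adult rodent myosin heavy chain, was at 19624, 24422 and 30588 CPM in libraries labelled day 7, against 24346, 27537 and 31761 CPM in those labelled day 1 (-0.18 ± 0.10, adjusted p = 0.17), so the groups overlapped. Ckm, the cytosolic muscle creatine kinase, was the exception that rose, with 1716, 1973 and 2029 CPM in libraries labelled day 7, against 1229, 1486 and 1654 CPM in those labelled day 1 (0.39 ± 0.07, adjusted p = 0.00042). In the 8 libraries with Y-linked transcripts, 21 of the mature genes fell and 23 of the fetal genes rose, and the rise of Ckm did not pass.

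Of 13 isoform pairs that could be formed, the ratio of the mature to the other form was lower in every library labelled day 7 than in any labelled day 1 in 11, and the groups overlapped in 2. Among single genes the groups did not overlap in 13.7% (labelled day 7 higher) and 13.8% (labelled day 7 lower). The share among ratios of other gene pairs was not computed, and the pairs were chosen with earlier results of these data known. Each value is the log2 ratio of the CPM of both genes in a library, which was compared only between libraries since gene length was not taken into account, and no test was run on it. The Cox8b to Cox8a ratio was -2.23 ± 0.19 in libraries labelled day 7 and 0.74 ± 0.38 in those labelled day 1 (SD, n = 6 each). The Tnni3 to Tnni1 ratio was -0.38 ± 0.14 in libraries labelled day 7 and 2.22 ± 1.16 in those labelled day 1, where it ran from 0.92 in library 13 to 4.29 in library 62. The Myh6 to Myh7 ratio was 1.11 ± 0.57 in libraries labelled day 7 and 3.54 ± 0.13 in those labelled day 1. Hexokinase, glucose transporter and enolase pairs behaved alike: Hk2 to Hk1 was at -3.02 ± 0.18 in libraries labelled day 7 and -0.84 ± 0.37 in those labelled day 1, Slc2a4 to Slc2a1 was at 2.70 ± 0.32 in libraries labelled day 7 and 5.01 ± 0.55 in those labelled day 1, and Eno3 to Eno1 was at -0.11 ± 0.07 in libraries labelled day 7 and 1.65 ± 0.26 in those labelled day 1. The pairs that overlapped were Ckm to Ckb, with 3.12 ± 0.10 in libraries labelled day 7 and 3.44 ± 0.28 in those labelled day 1, and Ldhb to Ldha, with 1.08 ± 0.42 in libraries labelled day 7 and 1.40 ± 0.27 in those labelled day 1.

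**Figure D2:**
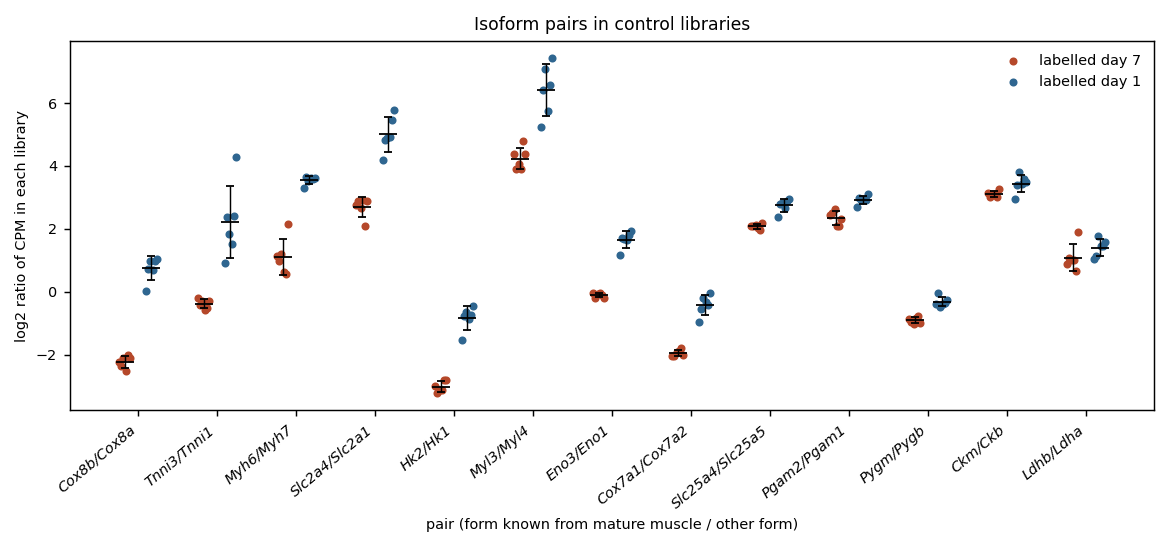
Log2 ratio of CPM of 13 isoform pairs in each control library, labelled day 7 left of labelled day 1 in every pair, with the mean and SD of 6 libraries. The ratio is lower in the libraries labelled day 7 with no overlap in 11 pairs, and the widest gap is that of Cox8b/Cox8a, with means of -2.23 and 0.74.

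Imprinted genes, many of which drive fetal growth, were higher in the libraries labelled day 7: 18 of 23 tested rose (78.3%, beside 26.4% of all genes) and 0 fell, and their median log2 fold change was 1.32. Igf2, the fetal insulin-like growth factor, was at 627, 767 and 849 CPM in libraries labelled day 7, against 164, 210.3 and 347 CPM in those labelled day 1 (1.76 ± 0.15, adjusted p = 4.8e-07). H19, the noncoding RNA next to it, was at 326, 378 and 413 CPM in libraries labelled day 7, against 40.2, 69.4 and 119.8 CPM in those labelled day 1 (2.34 ± 0.21, adjusted p = 1.3e-06). Plagl1, a zinc finger gene known to regulate other imprinted genes, was at 185, 204 and 221 CPM in libraries labelled day 7, against 34.1, 53 and 84.5 CPM in those labelled day 1. Igf2r, the receptor that clears IGF2, rose by 1.32 ± 0.10, and Grb10, an adaptor that restrains insulin and IGF signalling, by 1.54 ± 0.13, so growth promoters and growth restrainers were both higher. Cdkn1c, the imprinted cell cycle inhibitor, was at 15.2, 53.1 and 65.8 CPM in libraries labelled day 7, against 4.46, 5.16 and 6.6 CPM in those labelled day 1 (3.23 ± 0.28). The imprinted genes Sgce, Ndn, Rtl1, Mirg and Impact did not pass, and Impact fell without m1101 or without library 13. Part of the exonic bases of some genes lies inside other genes, 99.9% in Igf2, 75.3% in Myh7, 69.2% in Nppa, 67.9% in Tagln, 61.3% in Slc2a1 and 43.3% in Cdkn1c, and their counts may cover only part of each transcript.

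Igf2bp1, Igf2bp2 and Igf2bp3 code for RNA-binding proteins of embryonic cells, and Lin28b for the protein that blocks maturation of the let-7 microRNAs. Of the 12 tested genes of this group, 9 rose (75%) and 0 fell, with a median of 0.80. Igf2bp1 was at 43.4, 53.3 and 59.2 CPM in libraries labelled day 7, against 1.16, 3.07 and 8.78 CPM in those labelled day 1 (3.82 ± 0.35, adjusted p = 1.5e-06). Igf2bp3 was at 84.3, 92.4 and 98.4 CPM in libraries labelled day 7, against 14.4, 25.4 and 42.5 CPM in those labelled day 1 (1.74 ± 0.19). Lin28b was at 16, 18.4 and 18.8 CPM in libraries labelled day 7, against 8.77, 9.9 and 11.5 CPM in those labelled day 1 (0.83 ± 0.09). Hmga2, a chromatin protein of embryonic cells, was at 3.69, 7.11 and 7.72 CPM in libraries labelled day 7, against 0.826, 0.985 and 2.9 CPM in those labelled day 1 (2.22 ± 0.31). Arid3a, Nr6a1 and Dicer1 did not pass.

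Many genes of this list are known let-7 targets, so the let-7 seed and a site from 4 of them are shown. The mature let-7a sequence (RefSeq, GRCm38.p6) has its seed, bases 2 to 8, in capitals, and the target stretches come from the longest annotated 3′ UTR of each gene in GENCODE M21, with the match to the seed, CTACCTC, in capitals.
mmu-let-7a-5p: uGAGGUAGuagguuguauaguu
Igf2bp1: gctgtgcgaagtaaaCTACCTCaaggtgtg
Igf2bp3: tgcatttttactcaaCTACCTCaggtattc
Lin28b: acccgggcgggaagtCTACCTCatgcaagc
Hmga2: gccgacattcaatttCTACCTCagcatcag
The 3′ UTRs of Igf2bp1, Lin28b and Hmga2 each hold 4 such matches on the transcript strand, and that of Igf2bp3 holds 1. A match was present in 11 of the 12 genes, all but Dicer1, as the choice of known targets fixes, and the median length of the 12 3′ UTRs was 3051 bases. Among 13722 tested genes with an annotated 3′ UTR, 10.5% held a match. Over all genes the picture was faint: of 176 genes with at least 2 matches, 32.4% were higher and 18.2% lower in libraries labelled day 7, against 28.02% higher and 25.02% lower among genes with no match, and the first set has the longer 3′ UTRs (median 3626 against 1058 bases). The let-7 microRNAs themselves were not measured in these polyadenylated RNA libraries.

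Genes of the G2 and M phases of the cell cycle rose together: 34 of 34 tested were higher in libraries labelled day 7, beside 26.4% of all genes, with log2 fold changes of 0.79 to 1.70 and a median of 1.12. Ccnb1, the mitotic cyclin B1, was at 89.1, 201 and 218 CPM in libraries labelled day 7, against 31, 51.1 and 107 CPM in those labelled day 1 (1.65 ± 0.27, adjusted p = 0.00024). Racgap1, a GTPase-activating protein of the cytokinetic midzone, was at 65.7, 147 and 163 CPM in libraries labelled day 7, against 30.9, 39.4 and 79 CPM in those labelled day 1 (1.56 ± 0.25, adjusted p = 0.00018). Ect2, the exchange factor that Racgap1 recruits for furrowing, was at 23.9, 61.9 and 69.3 CPM in libraries labelled day 7, against 11.3, 15.1 and 30.01 CPM in those labelled day 1 (1.70 ± 0.29, adjusted p = 0.00026). Cenpf, a kinetochore protein, was at 56.3, 109 and 127 CPM in libraries labelled day 7, against 37.3, 44.6 and 73.8 CPM in those labelled day 1 (1.13 ± 0.20). The groups overlapped in each of the 34 genes. The summed level of the list was 1192 CPM in m1101 and 2570 to 2993 CPM in the other 5 libraries labelled day 7, against 2035 CPM in library 13 and 698 to 1246 CPM in the other 5 labelled day 1. The number of rises was 34 without m1101 and 13, but 10 with the presence of Y-linked transcripts as a covariate and 5 within the 8 libraries with Y-linked transcripts, where m1101 is 1 of the 2 libraries labelled day 7.

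DNA replication genes did not move alike. Of 31 tested, 4 rose (12.9%, beside 26.4% of all genes: Rrm1, Rrm2, Ccne1 and Rfc5), 2 fell (E2f1 and Pola1) and 25 did not pass, with a median of 0.06. The number of rises was 8 without library 13, 1 without m1064, m1088 or 22, 2 without m1091, 14 or 62, and 0 without library 56, under either Y-linked setting or with no filter on low counts. Of 16 inhibitors of the cell cycle 8 rose (50%), among them Cdkn1c, Cdkn2c (1.18 ± 0.21) and Rbl1 (0.91 ± 0.15), and 2 fell, Ccng1 (-0.78 ± 0.08) and Rb1 (-0.23 ± 0.09). The fall of Rb1 did not hold on leaving out any of 6 libraries (m1022, m1066, m1088, m1091, m1101 or 22).

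G2 and M genes are known to share a promoter element, the cell cycle genes homology region with the letters TTTGAA, at which complexes built on the MuvB core repress the genes in resting cells and activate them in dividing ones. The promoters of 3 members that hold the element, from among those with the smallest p, are shown (RefSeq, GRCm38.p6, 250 bases before to 50 after the start, in the direction of the gene), with TTTGAA in capitals. They lie at chr15:99651607-99651906 for Racgap1, chr3:27153805-27154104 for Ect2 and chr1:189688037-189688336 for Cenpf, all on the minus strand.
Racgap1 promoter: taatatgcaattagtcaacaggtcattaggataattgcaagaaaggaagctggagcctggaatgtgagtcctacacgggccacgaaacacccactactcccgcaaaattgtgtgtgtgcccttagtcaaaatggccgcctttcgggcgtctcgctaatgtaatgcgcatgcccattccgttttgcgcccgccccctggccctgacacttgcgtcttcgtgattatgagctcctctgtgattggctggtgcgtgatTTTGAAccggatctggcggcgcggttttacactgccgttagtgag
Ect2 promoter: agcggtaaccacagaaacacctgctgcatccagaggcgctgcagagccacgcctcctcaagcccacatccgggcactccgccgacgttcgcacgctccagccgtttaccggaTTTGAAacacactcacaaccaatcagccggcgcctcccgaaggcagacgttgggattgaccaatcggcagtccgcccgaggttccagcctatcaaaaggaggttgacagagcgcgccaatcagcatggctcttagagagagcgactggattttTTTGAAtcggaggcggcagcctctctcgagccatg
Cenpf promoter: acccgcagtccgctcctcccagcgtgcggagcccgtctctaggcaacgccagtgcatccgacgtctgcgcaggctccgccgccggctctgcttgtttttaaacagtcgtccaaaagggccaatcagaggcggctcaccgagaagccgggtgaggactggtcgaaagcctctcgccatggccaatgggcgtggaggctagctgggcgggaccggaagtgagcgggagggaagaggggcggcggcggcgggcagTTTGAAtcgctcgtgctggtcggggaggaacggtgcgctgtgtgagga
The match lies at base 256 of the 300 in Racgap1 and at base 253 in Cenpf, and Ect2 has 2 matches. Of the 28 G2 and M genes with a promoter in the table, 21 (75%) held TTTGAA on either strand, against 1783 of 11732 tested genes (15.2%) and 5 of 26 DNA replication genes (19.2%). The letters CCAAT, the core of the CCAAT box, which can share an end base with TTTGAA, were found on either strand in 22 of the 28 (78.6%), against 4980 of all tested genes (42.4%) and 16 of the 26 replication genes (61.5%). A match describes the letters of the window and not binding.

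**Figure D3:**
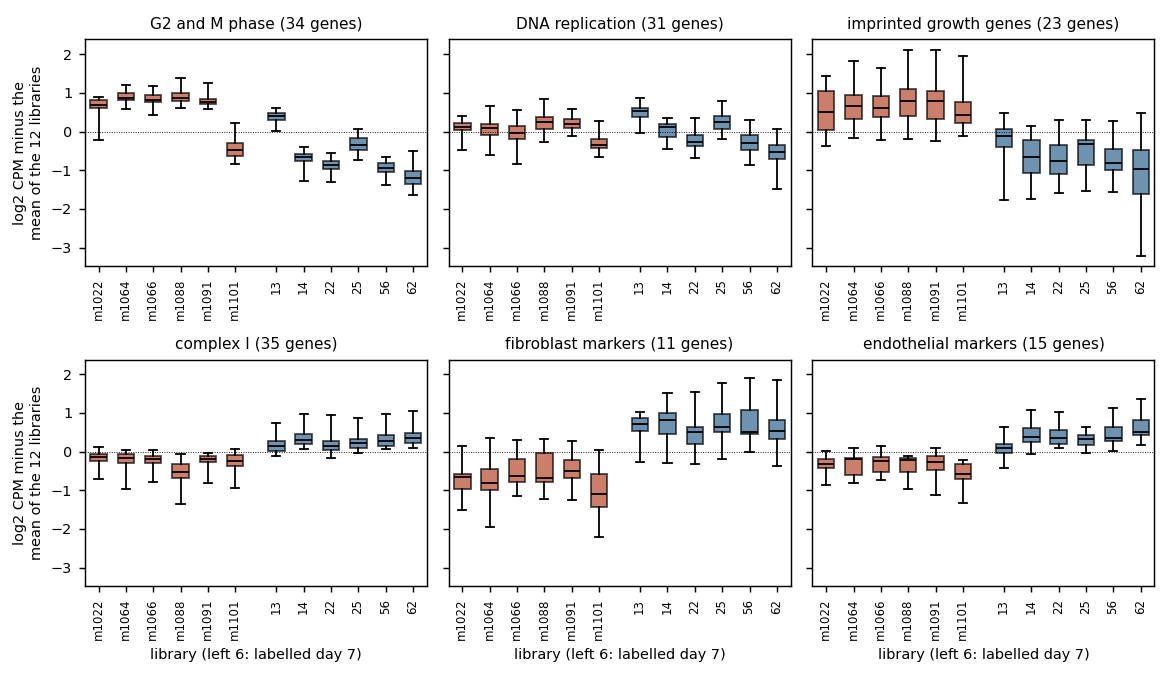
Spread of gene levels (log2 CPM minus the gene's mean over the 12 libraries) in each control library for 6 gene lists, with labelled day 7 in the left 6 boxes of each panel and labelled day 1 in the right 6. Boxes span the quartiles with the median as a line, and whiskers the full range. In the G2 and M panel m1101 lies below the other libraries labelled day 7 and library 13 above the others labelled day 1, whereas the fibroblast and endothelial boxes of the libraries labelled day 7 lie below those labelled day 1.

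Sarcomere genes rose and fell in shares near those of all genes. Of 20 thick filament genes 6 rose (30%) and 7 fell (35%), and of 30 thin filament and Z-disc genes 10 rose and 10 fell (33.3% each), beside 26.4% and 24.3% of all genes, with medians of -0.16 and 0.06. Beside Myh7 and Myl4, Trim55, a ubiquitin ligase that holds titin and myosin during assembly, rose, with 912, 962 and 1024 CPM in libraries labelled day 7, against 305, 420.3 and 581 CPM in those labelled day 1 (1.18 ± 0.11). Its relative Trim54 fell (-1.62 ± 0.17), and so did the ventricular light chains Myl2 (-0.47 ± 0.10) and Myl3 (-0.48 ± 0.09). In the Z-disc, Flnc, the muscle filamin, rose by 0.85 ± 0.09, and Palld, an actin-bundling protein, by 0.45 ± 0.06. Hspb6, a small heat shock protein, fell (-0.99 ± 0.11), as did Tmod4, a pointed-end cap of skeletal type (-1.96 ± 0.20). Under the Y-linked settings 5 thin filament and Z-disc genes rose in place of 10, and 6 did without library 56. Actc1, Acta1 and Tnnc1 are listed at 0 in all libraries and were not analysed.

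Of 24 calcium handling genes 7 rose and 7 fell (29.2% each), shares near the 26.4% and 24.3% of all genes. Slc8a1, the sodium-calcium exchanger on which fetal myocytes rely, was at 2229, 2616 and 2832 CPM in libraries labelled day 7, against 885, 1174 and 1683 CPM in those labelled day 1 (1.07 ± 0.13, adjusted p = 8.2e-06). Genes of the sarcoplasmic reticulum store went in both directions. Trdn, triadin, was at 849, 1024 and 1079 CPM in libraries labelled day 7, against 1239.9, 1862 and 1971 CPM in those labelled day 1 (-0.81 ± 0.10). Hrc, a calcium-binding protein of the reticulum lumen, fell by 0.94 ± 0.12. Casq1, the calsequestrin of skeletal type, rose, with 36.6, 63.8 and 79.8 CPM in libraries labelled day 7, against 15.9, 23.8 and 35.7 CPM in those labelled day 1 (1.26 ± 0.24), as did Fkbp1b, a protein bound to the ryanodine receptor (1.47 ± 0.24). Casq2 and Ryr2 did not pass. Of 18 T-tubule and dyad genes 9 fell (50%) and 3 rose (16.7%), with a median of -0.24. Trim72, a membrane repair protein, was at 2.1, 3.69 and 5.41 CPM in libraries labelled day 7, against 17.4, 24.5 and 32.8 CPM in those labelled day 1 (-2.79 ± 0.22). Dysf, dysferlin, fell by 0.87 ± 0.10. The rises were those of Jph1, Bves and Popdc3, the last 2 coding for Popeye domain proteins that bind cAMP, at 1.75 ± 0.11 and 1.84 ± 0.13.

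Ion channel genes fell more often than they rose, with 15 of 27 lower (55.6%, beside 24.3% of all genes) and 4 higher (14.8%), and a median of -0.45. Kcne1, the beta subunit of the slow delayed rectifier, was at 145, 198 and 212 CPM in libraries labelled day 7, against 309.9, 398 and 439 CPM in those labelled day 1 (-1.05 ± 0.11). Kcnd2, a transient outward channel of mature rodent myocytes, was at 56.8, 60.9 and 69.3 CPM in libraries labelled day 7, against 71.8, 132 and 142 CPM in those labelled day 1 (-0.99 ± 0.13). Kcnk3, a background potassium channel, fell by 1.23 ± 0.17. The sodium pump subunit gene Atp1b1 rose (0.85 ± 0.08). At the intercalated disc and costamere 11 of 31 rose (35.5%) and 12 fell (38.7%). Lama2, a laminin chain of adult muscle, fell (-1.10 ± 0.08), as did Itga7, the alpha chain of a laminin receptor (-1.78 ± 0.13), while Itgb1, the common integrin beta chain, rose by 0.82 ± 0.09 and the desmosomal Pkp2 by 1.03 ± 0.08. With Y-linked transcripts as a covariate 6 disc genes rose, and within the libraries that have them 5.

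Genes of glucose use were higher and those of fatty acid use lower in the libraries labelled day 7. Of 29 glycolysis genes 21 rose (72.4%, beside 26.4% of all genes) and 5 fell (17.2%), with a median of 0.49. Eno1, the ubiquitous enolase, was at 1492, 1606 and 1774 CPM in libraries labelled day 7, against 586, 631 and 890.5 CPM in those labelled day 1 (1.27 ± 0.10, adjusted p = 1.2e-07). Hk1, the ubiquitous hexokinase, was at 501, 548 and 563 CPM in libraries labelled day 7, against 231, 253 and 321 CPM in those labelled day 1 (1.04 ± 0.07). Slc2a1, the glucose transporter GLUT1, was at 10.8, 12.6 and 19.9 CPM in libraries labelled day 7, against 2.86, 3.98 and 5.75 CPM in those labelled day 1 (1.70 ± 0.20). The falls were in forms typical of muscle: Hk2 (-1.13 ± 0.11), Pfkm (-0.80 ± 0.08), Slc2a4 (-0.62 ± 0.09), Eno3 (-0.48 ± 0.07) and Pygm (-0.24 ± 0.07). Under both Y-linked settings 12 glycolysis genes rose and 5 fell.

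Of 30 genes of fatty acid oxidation 19 fell (63.3%, beside 24.3% of all genes) and 5 rose (16.7%), with a median of -0.34. Hadhb, a subunit of the trifunctional protein, was at 733, 908 and 1138 CPM in libraries labelled day 7, against 1678, 1958 and 2124 CPM in those labelled day 1 (-1.04 ± 0.10, adjusted p = 1.4e-06). Decr1, a reductase for unsaturated fatty acids, was at 71.5, 86 and 114 CPM in libraries labelled day 7, against 218, 249.6 and 273 CPM in those labelled day 1 (-1.46 ± 0.10). Ucp3, a mitochondrial carrier linked to fatty acid use, was at 0.767, 12.9 and 53.8 CPM in libraries labelled day 7, against 56.1, 88.9 and 115 CPM in those labelled day 1 (-2.23 ± 0.71), and ranged widely within the libraries labelled day 7. Its call was lost under both Y-linked settings. Acsl3, an acyl-CoA synthetase of the endoplasmic reticulum and lipid droplets, went against the list, with 77.3, 83.5 and 91.3 CPM in libraries labelled day 7, against 10.5, 12.7 and 16.1 CPM in those labelled day 1 (2.67 ± 0.11, adjusted p = 1.1e-09). Cpt1a, the carnitine palmitoyltransferase of liver and fetal heart, rose by 0.57 ± 0.16, and its muscle form Cpt1b is listed at 0 in all libraries. Of 22 genes of fatty acid uptake and storage 14 fell (63.6%) and 3 rose (13.6%), with Plin5, the droplet protein of oxidative tissue, at -1.73 ± 0.22 and Slc27a4, a fatty acid transport protein that rose, at 1.39 ± 0.16.

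Ketone and branched-chain amino acid genes rose in 13 of 24 (54.2%) and fell in 3 (12.5%). Bdh1, the enzyme with which the heart burns ketones, was at 7.2, 9.27 and 12.3 CPM in libraries labelled day 7, against 0.288, 0.874 and 1.18 CPM in those labelled day 1 (3.60 ± 0.25, adjusted p = 6.1e-08). Bcat2, the mitochondrial branched-chain aminotransferase, rose by 1.12 ± 0.08, and Bckdhb, a subunit of the next enzyme, by 1.17 ± 0.08. In the citric acid cycle and pyruvate list 16 of 36 fell (44.4%) and 4 rose (11.1%), led by falls of Ogdh (-0.65 ± 0.07) and of the pyruvate carrier subunit Mpc2 (-0.65 ± 0.07) and rises of Pcx, pyruvate carboxylase (1.88 ± 0.12), and Pdk1, the kinase that shuts pyruvate dehydrogenase (1.15 ± 0.11). With Y-linked transcripts as a covariate 9 genes of this list fell, and within the libraries that have them 7.

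Respiratory chain genes were lower in the libraries labelled day 7. Of 35 complex I genes 30 fell (85.7%, beside 24.3% of all genes) and 0 rose, with a median of -0.50, and of 44 genes of complexes III to V with their carriers 32 fell (72.7%) and 3 rose (6.82%), with a median of -0.44. Ndufa3 was at 80.3, 113 and 127 CPM in libraries labelled day 7, against 348, 403 and 430.2 CPM in those labelled day 1 (-1.85 ± 0.10, adjusted p = 7.2e-09). Atp5k, a small subunit of the ATP synthase, was at 62.5, 99.2 and 105 CPM in libraries labelled day 7, against 399, 423 and 434 CPM in those labelled day 1 (-2.16 ± 0.11, adjusted p = 3.8e-09). The 3 rises were forms found in many tissues: Cox6a1 (0.85 ± 0.13), Cox8a (0.28 ± 0.10) and the ADP/ATP carrier Slc25a5 (0.63 ± 0.07). The call of Cox8a was lost on leaving out any of 9 libraries (all but m1088, m1101 and 13) and under both Y-linked settings. Among the 5 complex I genes that did not pass was the core subunit gene Ndufs1, at -0.07.

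Short genes as a whole rose less often than all genes. Among 1648 genes of at most 1000 exonic bases the median log2 fold change was -0.13, with 26.9% lower and 13.8% higher, beside 24.3% and 26.4% of all genes. Median exonic length was 1569 bases in the complex I list, 1869.5 in that of the other complexes and 2021 in the cytosolic ribosome list. The cytosolic ribosome had 7 of 56 lower (12.5%) and 2 higher (3.57%, and 1 gene under each Y-linked setting or without library 25), with a median of -0.0049. Its falls included Rps28 (-1.49 ± 0.16), Rpl38 (-1.41 ± 0.19) and Rps27 (-1.20 ± 0.18). After removal of each library's trend of level on gene length, 30 complex I genes and 34 genes of the other complexes fell. Of 37 mitochondrial ribosome genes 12 fell (32.4%) and 5 rose (13.5%, and 3 genes without library 62), with a median of -0.08, and 5 fell under each Y-linked setting. Regulators of mitochondrial biogenesis, with 7 of 24 lower (29.2%) and 5 higher (20.8%), had shares near the 24.3% and 26.4% of all genes, and 3 rose within the libraries with Y-linked transcripts. Ppargc1a, the coactivator PGC-1alpha, was at 207, 257 and 315 CPM in libraries labelled day 7, against 308, 366 and 773 CPM in those labelled day 1 (-0.83 ± 0.22, adjusted p = 0.0062). Perm1 fell by 0.69 ± 0.10 and Tfam had a log2 fold change of -0.39 ± 0.07, and Polg, the mitochondrial DNA polymerase, rose by 1.75 ± 0.14.

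**Figure D4:**
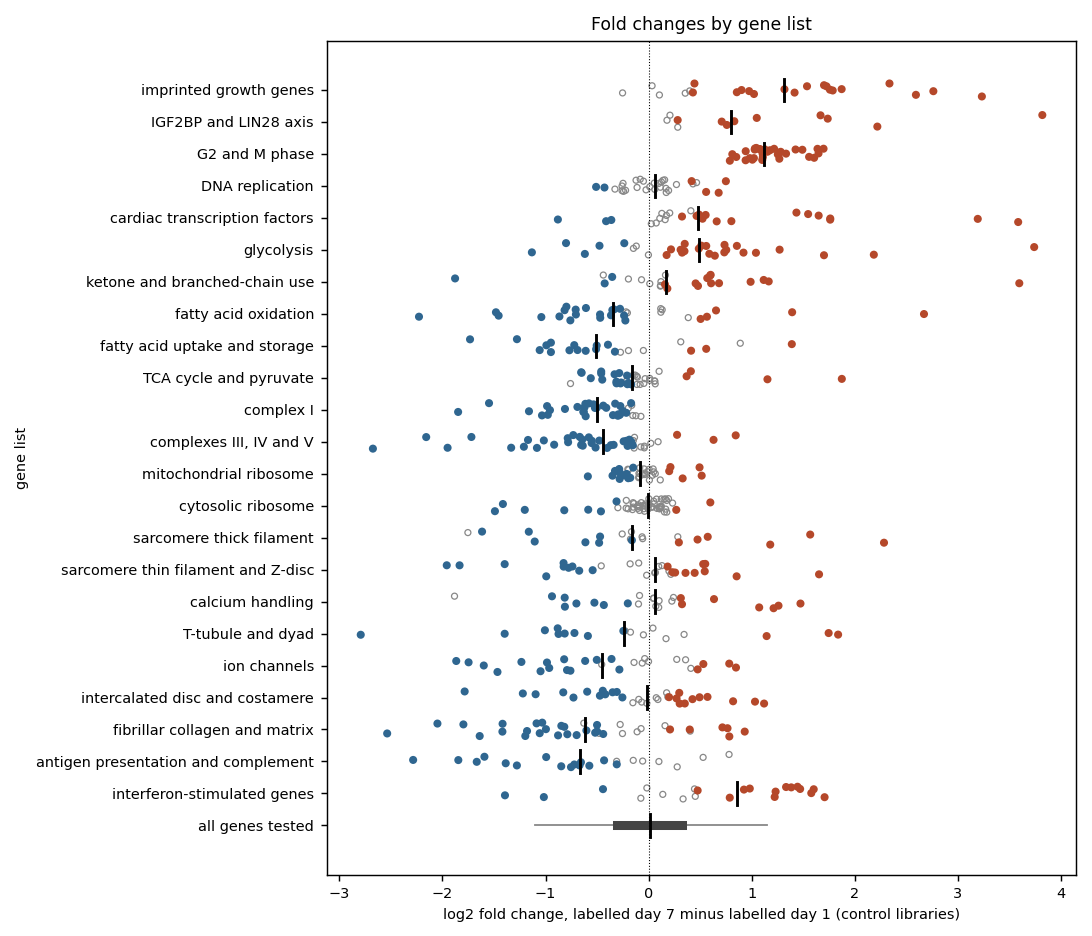
Log2 fold change of every tested member of 23 gene lists, labelled day 7 minus labelled day 1 in control libraries. Filled points passed an adjusted p of 0.05 (red higher, blue lower), open points did not, and black bars are medians; for all 16615 genes the thick bar spans the quartiles and the thin line the 5th to 95th percentile. The G2 and M list lies wholly above 0 and the complex I list wholly below it.

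Cardiac transcription factors were mostly higher in the libraries labelled day 7, with 15 of 26 rising (57.7%, beside 26.4% of all genes), 3 falling (11.5%) and a median of 0.48. Within the libraries with Y-linked transcripts 1 fell. Hand1, a factor of the embryonic left ventricle, was at 3.87, 5.32 and 6.8 CPM in libraries labelled day 7, against 0.303, 0.444 and 0.575 CPM in those labelled day 1 (3.59 ± 0.20, adjusted p = 9.7e-09). Hey2, which keeps compact myocardium in its ventricular state, was at 38.2, 43.7 and 48.1 CPM in libraries labelled day 7, against 2.61, 3.97 and 8.32 CPM in those labelled day 1 (3.19 ± 0.25, adjusted p = 3.1e-07). Gata4 was at 334, 417 and 489 CPM in libraries labelled day 7, against 95.3, 134 and 176 CPM in those labelled day 1 (1.65 ± 0.15). Nkx2-5 was at 257, 287 and 332 CPM in libraries labelled day 7, against 72, 101 and 151 CPM in those labelled day 1 (1.43 ± 0.17). Erbb2, the neuregulin co-receptor tied to neonatal myocyte division, rose by 1.76 ± 0.18. The falls were those of Hey1 (-0.88 ± 0.17), Mef2c (-0.41 ± 0.05) and Tbx3.

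The thyroid hormone receptor genes moved apart. Thrb, thyroid hormone receptor beta, was at 7.95, 8.24 and 14.3 CPM in libraries labelled day 7, against 29.8, 65.9 and 97.8 CPM in those labelled day 1 (-2.81 ± 0.25, adjusted p = 1e-06). Thra rose by 0.32 ± 0.08. Over the whole list of thyroid, steroid and adrenergic genes 8 of 25 rose (32%) and 7 fell (28%), near the 26.4% and 24.3% of all genes, and 4 rose within the libraries with Y-linked transcripts. The calls in the whole list included rises of Igf1r, the IGF1 receptor (0.91 ± 0.10), and Igfbp5 (1.01 ± 0.12) and a fall of Ghr, the growth hormone receptor (-0.57 ± 0.08). Klf15, a glucocorticoid-induced regulator of cardiac metabolism, was at 48.8, 83.3 and 105 CPM in libraries labelled day 7, against 8.34, 17.4 and 21.4 CPM in those labelled day 1 (2.32 ± 0.26). Among 16 muscle splicing factors 6 rose (37.5%) and 2 fell (12.5%, 0 genes under both Y-linked settings, and 1 without m1022 or m1101): Celf1, which promotes fetal splicing, was at 202, 267 and 288 CPM in libraries labelled day 7, against 118, 121 and 145 CPM in those labelled day 1 (1.05 ± 0.08). Mbnl1, which promotes adult splicing, was at 259.9, 279 and 361 CPM in libraries labelled day 7, against 307, 431 and 485 CPM in those labelled day 1 (-0.52 ± 0.11), a call lost under both Y-linked settings. Of 17 clock genes 3 rose (17.6%), among them Dbp (2.36 ± 0.41) and Per2 (1.30 ± 0.21), and 3 fell (17.6%), among them Rora (-0.98 ± 0.10), with 6 falls without m1101. The hour of collection was not among the labels used here.

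Matrix genes were lower in the libraries labelled day 7, with 22 of 36 falling (61.1%, beside 24.3% of all genes), 6 rising (16.7%) and a median of -0.62. With Y-linked transcripts as a covariate 3 rose, and within the libraries that have them 2. Dcn, decorin, was at 151, 208 and 231 CPM in libraries labelled day 7, against 577, 701 and 845 CPM in those labelled day 1 (-1.80 ± 0.11, adjusted p = 2.2e-08). Lum, lumican, was at 40.2, 64.4 and 75.5 CPM in libraries labelled day 7, against 205, 251 and 309 CPM in those labelled day 1 (-2.05 ± 0.14). Col15a1, a collagen of basement membranes, fell by 1.64 ± 0.11, and the elastic fibre gene Fbn1 had a log2 fold change of -0.88 ± 0.07, while its fetal relative Fbn2 rose by 0.72 ± 0.14. Fibroblast markers moved with them: 10 of 11 fell (90.9%) and Gsn rose, and their summed level was 2038 to 3525 CPM in libraries labelled day 7 and 3925 to 4892 CPM in those labelled day 1. Pi16, a gene of adventitial fibroblasts, was at 5.6, 10.1 and 11.9 CPM in libraries labelled day 7, against 42.7, 82.7 and 97.6 CPM in those labelled day 1 (-3.11 ± 0.23). In bulk tissue, fewer cells of a type and less RNA per cell cannot be told apart, and the part of fibroblasts in the matrix result was not tested.

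Endothelial markers fell in 14 of 15 (93.3%), and their summed level was 1368 to 1655 CPM in libraries labelled day 7 and 2247 to 3030 CPM in those labelled day 1. Cldn5, the tight junction gene of endothelium, was at 20.4, 24.4 and 31.5 CPM in libraries labelled day 7, against 53.6, 61.2 and 71.9 CPM in those labelled day 1 (-1.26 ± 0.11). Kdr, a receptor for vascular endothelial growth factor, fell by 0.87 ± 0.08. Flt1 did not pass. Endocardial markers went the other way, with 8 of 8 higher, at 749 to 890.1 CPM in sum in libraries labelled day 7 and 342 to 448 CPM in those labelled day 1, of which Gata4, also a cardiomyocyte gene, made up 334 to 489 CPM in libraries labelled day 7 and 95.3 to 176 CPM in those labelled day 1. Under each Y-linked setting 4 of the 8 rose. Npr3, a natriuretic peptide receptor of endocardium, was at 10.9, 13.9 and 17.9 CPM in libraries labelled day 7, against 2.4, 3.04 and 3.85 CPM in those labelled day 1 (2.23 ± 0.16). Plvap, the diaphragm protein of fenestrated and embryonic endothelium, was at 48.7, 58.1 and 66.4 CPM in libraries labelled day 7, against 3.81, 4.86 and 7.85 CPM in those labelled day 1 (3.45 ± 0.15). Pericyte and smooth muscle markers fell in 8 of 12 (66.7%) and rose in 3 (25%). Rgs5, a pericyte gene, was at 213, 238 and 289 CPM in libraries labelled day 7, against 693, 1215 and 1299 CPM in those labelled day 1 (-2.23 ± 0.14). Of the contractile genes of smooth muscle Tagln fell, as given above, whereas Cnn1 and Acta2 rose by 2.22 ± 0.19 and 1.12 ± 0.17. Cardiomyocyte markers had 4 of 12 higher (33.3%, and 2 genes within the libraries with Y-linked transcripts) and 3 lower (25%), and their summed level overlapped between the groups, at 63134 to 72152 CPM in libraries labelled day 7 and 57351 to 69134 CPM in those labelled day 1.

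Macrophage markers fell in 8 of 15 (53.3%) and rose in 2 (13.3%, and 1 gene under each Y-linked setting), with Csf1r at 7.77, 10.02 and 13 CPM in libraries labelled day 7, against 17.4, 19.99 and 22.9 CPM in those labelled day 1 (-0.99 ± 0.12). Lyve1, a gene of embryonic resident macrophages and lymphatic vessels, was at 9.68, 14.3 and 22.9 CPM in libraries labelled day 7, against 3.94, 6.44 and 7.02 CPM in those labelled day 1 (1.42 ± 0.21). Lymphocyte markers fell in 7 of the 7 that could be tested, with Ighm, the immunoglobulin heavy chain of B cells, at 0.658, 0.949 and 1.17 CPM in libraries labelled day 7, against 4.68, 6.42 and 7.4 CPM in those labelled day 1 (-2.79 ± 0.17). Antigen presentation and complement genes fell in 15 of 22 (68.2%) and rose in 0 (1 without m1064, 13 or 22), with a median of -0.66. Cd74, the invariant chain of class II molecules, was at 4.56, 5.12 and 6.2 CPM in libraries labelled day 7, against 9.36, 20.8 and 26.8 CPM in those labelled day 1 (-1.85 ± 0.22). Interferon-stimulated genes went the other way, with 13 of 22 higher (59.1%, beside 26.4% of all genes), 3 lower (13.6%) and a median of 0.86. Libraries m1088 and m1091 stood apart, with a summed level of 469 and 484 CPM, against 246 to 318 CPM in the other 4 labelled day 7 and 196 to 293 CPM in those labelled day 1. Irf7, the factor that amplifies the interferon response, was at 12.2, 16 and 31.5 CPM in libraries labelled day 7, against 4.79, 5.7 and 8.56 CPM in those labelled day 1 (1.71 ± 0.26). Erythroid markers fell in 5 of 8 (62.5%), among them Hbb-bt, a beta globin, with 887, 1117 and 1396 CPM in libraries labelled day 7, against 1534, 2252 and 2871 CPM in those labelled day 1 (-0.96 ± 0.15).

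Stress genes gave no common direction. Of 23 cardiac stress and immediate early genes 10 fell (43.5%) and 3 rose (13.04%): Nr4a1, an orphan nuclear receptor induced within minutes of stimulation, was at 15.4, 29.4 and 57.3 CPM in libraries labelled day 7, against 82.4, 141 and 403 CPM in those labelled day 1 (-2.51 ± 0.40). Dusp1, a phosphatase induced likewise, fell by 1.33 ± 0.16, while Myc rose by 1.46 ± 0.22. Under each Y-linked setting 4 of these genes fell. Of 22 hypoxia targets 9 rose (40.9%) and 5 fell (22.7%), and the number that fell was 3 with Y-linked transcripts as a covariate and 2 within the libraries that have them. Epas1, the endothelial hypoxia-inducible factor, was at -1.18 ± 0.10. Of 26 genes of the integrated stress response 11 rose (42.3%), among them the serine synthesis genes Phgdh (1.28 ± 0.21) and Psat1 (1.64 ± 0.30), and 8 fell (30.8%). With Y-linked transcripts as a covariate 7 of these rose and 3 fell, and within the libraries that have them 5 rose and 4 fell. Of 30 antioxidant genes 10 rose (33.3%) and 12 fell (40%, or 6 genes within the libraries with Y-linked transcripts), with Sod3, the extracellular superoxide dismutase, at -2.41 ± 0.17 and Sod2, the mitochondrial one, at -0.43 ± 0.06.

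The same contrast was fitted in the DKO libraries, which share no library with the controls. Over 17352 genes tested with all 24 libraries in 1 fit, 9119 (52.6%) differed between the libraries labelled day 7 and those labelled day 1 in DKO. In the same fit 9206 differed in controls. Both genotypes shared 7159 of these calls, of which 7135 changed in the same direction. In DKO the fetal list had 29 rises and 1 fall, with a median of 1.18, and the mature list 23 falls and 3 rises, with a median of -0.59. Both lists thus had the same main direction in both genotypes. The labelled-age effect differed between control and DKO in 187 genes (1.08%), more positive in controls in 133 (0.766%) and more negative in 54 (0.311%). Of the 187, 87 were pseudogenes, and all 87 were more positive in controls. Over the 12 control libraries, 1408 of the 16615 genes tested were pseudogenes. Over protein-coding genes alone 49 genes passed, 26 more positive and 23 more negative in controls. Without the filter on low counts 114 passed, and with DESeq2 364. Leaving out libraries in turn, 285 passed without control library 13, 121 without m1022 or m1064, 113 without m1091 and 92 without replicate 5 of DKO labelled day 7.

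Among the 34 fetal and 34 mature genes, the labelled-age effect differed between the genotypes in 1 gene, a share near the 1.08% of all genes. It was S100a1, a calcium-regulating protein of mature cardiomyocytes, with a log2 fold change of -0.43 in controls and -1.04 in DKO (difference 0.60, adjusted p = 0.0025). Chac1, a glutathione-degrading gene of the integrated stress response, was at 0.0365, 0.199 and 0.256 CPM in controls labelled day 7, against 1.01, 3.7 and 7.47 CPM in controls labelled day 1. Its log2 fold change was -4.47 in controls and 0.43 in DKO, where it did not pass (difference -4.90, adjusted p = 0.00018). Myl7 had one of 0.28 in controls and 6.02 in DKO (difference -5.73, adjusted p = 0.031). Before scaling, its level was 0.553 to 16.7 CPM in DKO labelled day 1 and 96.5 to 1096 CPM in DKO labelled day 7. The highest of the latter were 1096 CPM in m1124 and 565 CPM in m1128. Among the 15 atrial muscle markers, the labelled-age effect differed between the genotypes in 5, beside 1.08% of all genes. Prune2 and Krt8 were chosen after their values were seen. Prune2 had a log2 fold change of 0.06 in controls and -1.63 in DKO (difference 1.69, adjusted p = 0.00052), and Krt8, an epithelial keratin of the epicardium, had one of 0.34 in controls and -2.37 in DKO (difference 2.70, adjusted p = 0.011).

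**Figure D5:**
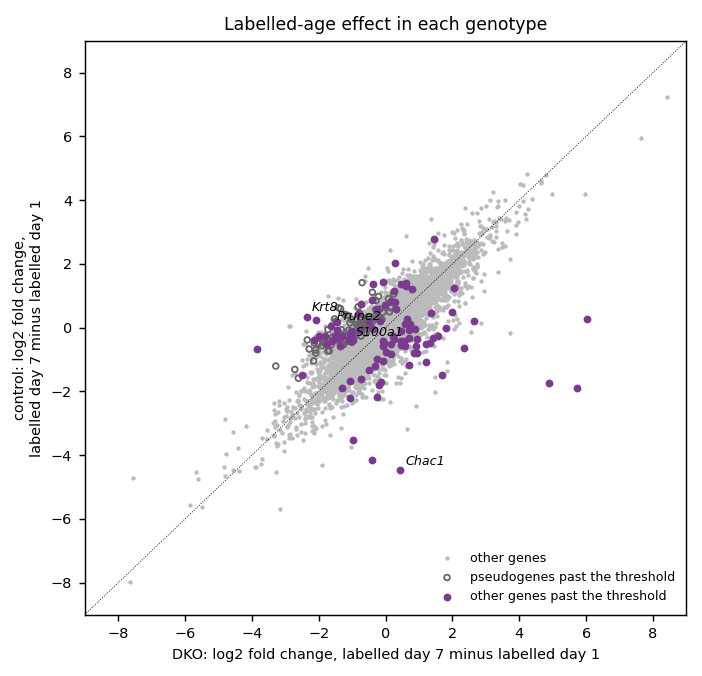
Log2 fold change, labelled day 7 minus labelled day 1, in control libraries (vertical axis) and in DKO libraries (horizontal axis) for 17352 genes, with the 187 genes whose effect differed between the genotypes drawn larger. Most genes lie along the dotted line of equal change, and Chac1 lies below it.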

How the data were processed

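Gene counts were deposited by the authors as whole-number counts per gene in each library, raw and not normalized. Per the submitters' processing notes, reads were demultiplexed with bcl2fastq and aligned with STAR 2.4.2a to GRCm39; the counting tool and its strand setting are not given in the sources used here. Per the labels' protocols, total RNA of left ventricular tissue (100 ng) was made into libraries with a low-input kit that does not mark strand, so overlapping and antisense genes cannot be told apart. Genes listed at 0 in all control libraries were not analysed, since absence of expression and lack of measurement could not be told apart.

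Counts of the 12 control libraries were filtered with filterByExpr (minimum count 10), scaled by TMM and tested with edgeR 4.0.16 (R 4.3.3), robust quasi-likelihood F-test, labelled day 7 against labelled day 1, Benjamini-Hochberg adjustment over all 16615 genes, threshold 0.05. Standard errors were taken from each fold change and its F value. The difference between genotypes was tested as an interaction over 24 libraries. Alternatives used DESeq2 1.42.0 and limma 3.58.1.

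The gene lists, pairs and tests were chosen with earlier results of these data known, and support no independent statement of direction. Named genes are all tested members of both maturation lists (22 fetal and 25 mature ones are drawn, and some are not reported here), the 10 protein-coding genes with the largest rise and fall that reached 20 CPM and did not overlap, up to 6 members of each other list with the smallest p, up to 2 against its direction and up to 2 that did not pass, and the pair members. Arid3a, Jph1, Krt8, Ndn, Ndufs1, Prune2, Rtl1 and Sgce fall outside this rule and were chosen after their values were seen. Eif2s3y, Myl7 and Rhot1 also fall outside it, and are given as a Y-linked gene, an atrial marker and a targeted gene. Replicates differed beyond sampling noise, with a smallest chi-square per degree of freedom of 6.09 between libraries of a group (m1064 and m1066). None was therefore counted as a repeat sequencing of the same library. Separate preparations from the same heart can also differ beyond sampling noise, so this cannot tell whether the animals were separate. Promoters and microRNAs were taken from RefSeq (GRCm38.p6) by symbol and 3′ UTRs from GENCODE M21, with no coordinates converted.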

Additional observations from a re-analysis of the deposited data

Results flagged for a closer look

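In 44 of 404 groups of 6 libraries, for the 202 genes named in the text, the highest or lowest library stood apart from the other 5 by Dixon's criterion, where chance flags about 1 in 20 groups. Library 13 and library m1101 did so most often. Among libraries labelled day 7, m1101 was lowest for Cenpf (56.3 CPM), Ckm (1716 CPM), Ect2 (23.9 CPM), Ldha (652 CPM), Pygm (360.3 CPM), Racgap1 (65.7 CPM), Rfc5 (23.6 CPM) and Rrm1 (74.2 CPM), and highest for Nppa (480.5 CPM) and Thrb (14.3 CPM). Library m1022 was lowest for Cdkn1c (15.2 CPM), Celf1 (202 CPM), Nrtn (13.3 CPM) and Ring1 (14.1 CPM), and m1088 for Atp5k (62.5 CPM) and Mpc2 (318 CPM). Library m1088 was highest for Sox10 (0.2215 CPM). Library m1091 was highest for Slc2a1 (19.9 CPM) and m1064 for Slc2a4 (93.6 CPM).

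Among libraries labelled day 1, library 13 was highest for Aldoc (5.12 CPM), Ccnb1 (107 CPM), Cdh3 (4.6 CPM), Cdkn2c (10.8 CPM), Eno1 (890.5 CPM), Hmga2 (2.9 CPM), Igf2 (347 CPM), Igf2bp1 (8.78 CPM), Igf2bp2 (27.2 CPM), Krt8 (5.06 CPM), Nppa (87.4 CPM), Phgdh (12.6 CPM) and Slc22a17 (6.73 CPM), and lowest for Dbp (1.997 CPM), Hk2 (111 CPM) and Rgs5 (693 CPM). Library 22 was highest for Mirg (8.4 CPM), Ring1 (3.76 CPM) and Tbx3 (65.1 CPM), library 14 for Arid3a (3.92 CPM) and Bmp10 (0.0267 CPM), library 62 for Dysf (165 CPM) and Nr4a1 (403 CPM), and library 25 for Mef2c (248 CPM). Library 25 was lowest for Tnni2 (1.23 CPM).

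The labelled-age effect differed between control and DKO by the interaction test of edgeR in 5 of the named genes, beside 1.08% of all genes. The difference, control minus DKO on the log2 scale, was -4.90 for Chac1, -5.73 for Myl7, 2.70 for Krt8, 1.69 for Prune2 and 0.60 for S100a1.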

How the results depend on the processing

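The count of genes that differed between labelled day 7 and labelled day 1 was 8428, and 2078 with a change of more than 2-fold, 5157 with Y-linked transcripts as a covariate and 4780 within the libraries that have them, where 2 libraries labelled day 7 remain. Leaving out libraries in turn it ran from 7701 to 8564, and under the other alternatives it lay within 1.5 times of 8428. The number of mature genes that rose was 1, with 0 within the libraries with Y-linked transcripts and 2 with Myl7 as a covariate. The difference between genotypes held 187 genes, with 114 under no filter on low counts, 364 with DESeq2, 49 over protein-coding genes, and 92 to 285 on leaving out libraries in turn. The cause of these shifts was not tested. None of the named calls reversed its direction under an alternative that was run. Over the 202 named genes, 18 calls were lost with Y-linked transcripts as a covariate and 24 within the libraries that have them. The calls of Atp2a1, Ccne1, Cox8a, Cpt1a, E2f1, Ldha, Ldhb, Mbnl1 and Myl1 were lost under both Y-linked settings. So were those of Pola1, Rb1, Rfc5, Rrm1, Rrm2, Tbx3, Tnni2, Tnnt3 and Ucp3. Those of Cenpf, Ckm, Fbn2, Hey1, Myl4 and Thra were lost within the libraries with Y-linked transcripts. With Myl7 as a covariate 7 calls were lost, and with no filter on low counts 4. The alternative without libraries over 50 CPM of Myl7 could not be fitted, since no library labelled day 7 is left. No paired analysis was possible because the groups share no library names or replicate numbers in the labels. Libraries labelled day 7 hold fewer counts, which limits the precision of low genes there.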

Other observations

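Skeletal muscle, nerve, epicardial and other minor cell markers gave a mixed picture, beside 26.4% of all genes higher and 24.3% lower. Of 12 skeletal muscle markers 4 rose in the libraries labelled day 7 (33.3%: Atp2a1, Myl1, Tnni2 and Ckm) and 1 fell (8.33%: Tnnt3). With Y-linked transcripts as a covariate 1 rise was left, and within the libraries that have them 0 calls. Schwann cell and nerve markers fell in 6 of 8 (75%) and rose in 2 (25%, and 1 with Y-linked transcripts as a covariate and 0 within the libraries that have them), with summed levels of 25.9 to 31.3 CPM in libraries labelled day 7 and 34.3 to 49.1 CPM in those labelled day 1. Sox10, the transcription factor of Schwann cells, had 9 counts in all over the libraries labelled day 7 and 134 over those labelled day 1. Conduction system markers fell in 5 of 10 (50%, and 2 within the libraries with Y-linked transcripts), with sums of 137 to 163 CPM in libraries labelled day 7 and 209 to 248 CPM in those labelled day 1. Epicardial markers rose in 2 of 10 (20%) and fell in 2 (20%, and 1 under each Y-linked setting), and without library 13 the number of rises was 7. Lysosomal genes rose in 7 of 32 (21.9%) and fell in 6 (18.8%, and 3 within the libraries with Y-linked transcripts). Neutrophil and mast cell markers rose in 3 of 10 (30%, and 0 under each Y-linked setting) and fell in 2 (20%). With all 12 libraries, the epicardial, lysosomal, and neutrophil and mast cell shares lay near those of all genes.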
